A study of Mus musculus with 12 samples.

Results

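The 9 genes described here, Pde3b, Pik3r3, Pik3cb, Gng12, Slc22a17, Prpf40b, Baz2b, Cep97 and Tnfaip1, were chosen by their measured group means, because the level in Ezh2 knockout CD62Llo regulatory T cells (Tregs) lay outside the means of both heterozygous groups. In 8 of them the knockout CD62Llo mean was the highest of the 4 groups, and in Tnfaip1 it was the lowest. They are 9 of 23352 gene symbols in the files and 9 of the 11431 with a level high enough to test. Because the knockout CD62Llo and the heterozygous levels chose the members, every difference between knockout CD62Llo and another group is given for them as a description. No p-value is given for these differences, and where members are counted as called in them, nothing is read from the count.

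The cells were taken from the spleen and lymph nodes (LN) of C57BL/6 females and were parted by surface CD62L, which resting T cells keep and activated T cells shed. The groups were KO CD62Llo (3 libraries) and KO CD62Lhi (3 libraries), both from Foxp3YFP-Cre/Foxp3WT;Ezh2fl/fl mice, and HET CD62Llo (3 libraries) and HET CD62Lhi (2 libraries used), both from Foxp3YFP-Cre/Foxp3WT;Ezh2fl/+ mice. All 4 groups therefore carry the Cre, and the HET cells can lose 1 Ezh2 allele, so the comparison is with a single-allele loss and not with unaltered cells. The Cre is driven by Foxp3, an X-linked gene, and stands on 1 of the 2 X chromosomes of these females, so that only a part of their Tregs makes it. The sources used here do not say whether the YFP that marks those cells was used in the sort, nor the age of the mice or how many went into a library. Levels are FPKM, fragments per kilobase of transcript, scaled to the number of mapped fragments, which can be compared between genes because they are divided by length.

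Ezh2 is the catalytic subunit of Polycomb repressive complex PRC2, which places a repressive methyl mark on histone H3 and in mammals is known to gather at CpG-rich promoters. In Tregs Ezh2 is known to be induced on activation and to help hold the Foxp3-dependent repression of genes. Of the 9 genes, 4 encode parts of signalling through PI3-kinase, heterotrimeric G proteins and cyclic nucleotides. Class I PI3-kinases phosphorylate a membrane lipid that recruits the kinase Akt, and restraint of this pathway is known to matter for Treg identity. The 5 other genes encode a surface receptor, a splicing factor, a chromatin reader, a centriole protein and an adaptor of a ubiquitin ligase, and no pathway known to join all 9 was used to choose them.

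Ezh2 itself had 12.5, 16.8 and 14.4 FPKM in KO CD62Llo libraries, against 18.2, 17.8 and 20.5 FPKM in HET CD62Llo libraries. In the CD62Lhi fraction it had 9.15, 11.5 and 11.02 FPKM in KO libraries, against 12.7 and 12.5 FPKM in HET libraries. Every KO library was below every HET library of its fraction, but the log2 changes of -0.36 (SE 0.11, adjusted p = 0.113) in CD62Llo and -0.24 (SE 0.12, adjusted p = 1) in CD62Lhi did not pass 0.05 (limma, Benjamini-Hochberg over 11431 genes). A whole-gene FPKM cannot show the deleted part of the gene, so it checks the genotype only in part. Foxp3, which defines Tregs, lay between 75.9 and 96.8 FPKM in all 11 libraries. The 6 Treg markers Foxp3, Il2ra, Ctla4, Ikzf2, Cd4 and Cd3e were less even. They summed to 879 to 989 FPKM in KO CD62Llo and 1005 to 1136 in HET CD62Llo. In KO CD62Lhi they summed to 724 to 756 and in HET CD62Lhi to 721 to 797. Ctla4 averaged 142 FPKM in KO CD62Llo and 217 in HET CD62Llo. Between 10597 and 11024 genes reached 1 FPKM in each library. Libraries of a group correlated at r of 0.949 to 0.978 on the log2 scale and libraries of different groups at 0.925 to 0.966. The third HET CD62Lhi library, set aside in its label for too few reads, listed an FPKM above 0 for 589 of 23846 gene entries and takes part in no comparison.

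Markers of resting and activated Tregs also differed between genotypes, the resting ones in the CD62Llo fraction, and these values stand beside every result below. The 4 resting Treg markers Ccr7, Tcf7, Klf2 and Lef1 summed to 626 to 774 FPKM in KO CD62Llo, 766 to 902 in KO CD62Lhi, 444 to 593 in HET CD62Llo and 772 to 832 in HET CD62Lhi. KO CD62Llo was thus above HET CD62Llo in these markers, and its highest library just reached the lower HET CD62Lhi library. The ranges of KO CD62Lhi and HET CD62Lhi overlapped. The 5 activated Treg markers (Cd44, Icos, Itgae, Tigit and Ccr4) summed to 138 to 180 FPKM in KO CD62Llo, 33.0 to 41.3 in KO CD62Lhi, 322 to 408 in HET CD62Llo and 44.4 to 46.8 in HET CD62Lhi, so KO CD62Llo lay between the HET fractions. The 9 genes, by the way they were chosen, do not. In bulk libraries fewer cells of a kind and less RNA per cell cannot be told apart.

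Upstream sequences are shown for Slc22a17 and Gng12, which have the largest ratios of KO CD62Llo to HET among members whose RefSeq start equals that in the files, and for Tnfaip1, the only member that was lower. Each is the 250 bases before the RefSeq start (GRCm38.p6, the same build as mm10), 5′ to 3′ on the strand of the gene, with every CG dinucleotide in capitals. The windows are chr14:54913133-54913382 on the minus strand for Slc22a17, chr6:66896147-66896396 on the plus strand for Gng12 and chr11:78536261-78536510 on the minus strand for Tnfaip1.
Slc22a17: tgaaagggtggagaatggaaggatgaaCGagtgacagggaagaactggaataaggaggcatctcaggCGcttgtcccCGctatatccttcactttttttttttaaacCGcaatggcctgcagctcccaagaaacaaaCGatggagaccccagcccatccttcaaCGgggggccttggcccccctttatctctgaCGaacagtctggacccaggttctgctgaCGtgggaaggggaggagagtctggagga
Gng12: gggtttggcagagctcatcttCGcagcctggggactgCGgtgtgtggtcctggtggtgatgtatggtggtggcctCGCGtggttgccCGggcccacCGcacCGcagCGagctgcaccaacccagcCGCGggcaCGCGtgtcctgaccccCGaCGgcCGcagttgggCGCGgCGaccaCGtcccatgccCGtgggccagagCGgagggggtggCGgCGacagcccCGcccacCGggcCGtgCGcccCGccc
Tnfaip1: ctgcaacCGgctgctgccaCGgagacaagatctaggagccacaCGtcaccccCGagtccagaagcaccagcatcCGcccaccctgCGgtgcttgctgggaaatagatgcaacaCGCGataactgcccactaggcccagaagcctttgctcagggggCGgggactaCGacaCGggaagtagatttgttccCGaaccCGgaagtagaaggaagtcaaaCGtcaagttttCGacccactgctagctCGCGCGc
Gng12 had 28 CG dinucleotides in its window, Tnfaip1 18 and Slc22a17 8, against a median of 6 (quartiles 2 and 16) over 32851 RefSeq windows of the same length. A RefSeq window was matched for 8 of the 9 genes. Pik3cb had 32, Prpf40b 29, Pik3r3 12, Cep97 5 and Baz2b 4, so the set held windows above the upper quartile and windows below the median. The annotation carries Baz2b, on the minus strand, to chr2:60209839. Its window, chr2:60125741-60125990, thus lies inside the annotated gene and may not be the main promoter, which limits its CG count and its motif match below. The forkhead motif GTAAACA, searched on both strands, was in 0 of the 8 windows and in 3.17% of all windows. The cAMP response element TGACGTCA, which reads the same on both strands, was in the window of Baz2b alone among the 8, and in 1.55% of all windows. A match of letters is a description and shows no binding, and no histone mark was measured in these samples.

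Pik3cb (chr9:99038402-99140211, mm10, minus strand) encodes the beta catalytic subunit of class I PI3-kinase, known for its activation by G protein beta-gamma dimers. It had 3.24, 3.35 and 2.52 FPKM in KO CD62Llo libraries, 2.51, 2.69 and 2.38 FPKM in KO CD62Lhi libraries, 2.17, 1.93 and 1.61 FPKM in HET CD62Llo libraries and 2.60 and 2.18 FPKM in HET CD62Lhi libraries. Replicates 1 and 2 of KO CD62Llo were above all 5 HET libraries and replicate 3 lay inside their range, which made Pik3cb the 1 member of the 9 whose KO CD62Llo libraries were not all outside the HET libraries. The KO CD62Llo mean was 1.27 times the HET CD62Lhi mean, the nearer of the HET means, and 1.59 times the HET CD62Llo mean.

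Pik3r3 (chr4:116221914-116303056, plus strand) encodes a regulatory subunit that binds the catalytic subunits and brings them to phosphotyrosine. It had 3.19, 3.63 and 2.62 FPKM in KO CD62Llo libraries, 1.65, 1.93 and 1.60 FPKM in KO CD62Lhi libraries, 1.46, 1.57 and 1.75 FPKM in HET CD62Llo libraries and 1.09 and 1.44 FPKM in HET CD62Lhi libraries. All 3 KO CD62Llo libraries stood clear of the other 8, whose values ran on from each other with KO CD62Lhi overlapping HET CD62Llo. Its ratio of KO CD62Llo to the nearer HET mean, 1.98, was the largest of the 9. The annotation places the same-strand gene Gm49337 over 1289 of its exon bases. Gm49337 has no level of its own in the files, so reads from it could have been counted for Pik3r3.

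Gng12 (chr6:66896397-67021361, plus strand) encodes a gamma subunit of heterotrimeric G proteins. It had 4.59, 4.22 and 4.12 FPKM in KO CD62Llo libraries, 3.22, 2.73 and 3.47 FPKM in KO CD62Lhi libraries, 2.56, 2.78 and 2.69 FPKM in HET CD62Llo libraries and 2.84 and 3.27 FPKM in HET CD62Lhi libraries. The KO CD62Llo libraries were all above every other library. HET CD62Llo was the lowest group and all its libraries lay below both HET CD62Lhi libraries, so within HET the CD62Llo fraction was on the lower side and within KO on the higher side. The ratio to the nearer HET mean was 1.41. An antisense transcript, 4930597O21Rik, overlaps 125 of its exon bases and the strand setting of the counting is not given in the sources used here.

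Pde3b (chr7:114415254-114537937, plus strand) encodes a phosphodiesterase that breaks down cyclic AMP and is activated downstream of PI3-kinase and Akt. In mouse Tregs it is known as a gene that Foxp3 holds down. It had 3.72, 6.34 and 3.37 FPKM in KO CD62Llo libraries, 3.13, 3.83 and 4.41 FPKM in KO CD62Lhi libraries, 2.48, 1.78 and 1.59 FPKM in HET CD62Llo libraries and 3.23 and 2.75 FPKM in HET CD62Lhi libraries. The 2 KO groups overlapped, KO CD62Lhi also overlapped HET CD62Lhi, and HET CD62Llo lay below all other libraries. Replicate 2 of KO CD62Llo stood far above the other KO CD62Llo libraries. That library also had the highest summed myeloid markers of the 11 (5 genes found in the files, 241 FPKM, of which Lyz2 made up 219), and their part in the value was not tested. Without it the Pde3b change of KO CD62Llo against HET CD62Llo was 0.63 on the log2(FPKM + 1) scale, against 0.86 (SE 0.20) with it, and against KO CD62Lhi it was -0.07, against 0.16 (SE 0.20) with it.

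Slc22a17 (chr14:54906727-54913132, minus strand) encodes a surface receptor for the iron-carrier-binding protein lipocalin-2. It had 4.56, 4.28 and 4.03 FPKM in KO CD62Llo libraries, 1.70, 1.63 and 2.00 FPKM in KO CD62Lhi libraries, 2.55, 2.88 and 2.48 FPKM in HET CD62Llo libraries and 1.70 and 1.43 FPKM in HET CD62Lhi libraries. It was the only member ordered first by fraction: both CD62Llo groups lay above both CD62Lhi groups with no overlap, and the 2 CD62Lhi groups overlapped each other. Its KO CD62Llo mean was 1.63 times the HET CD62Llo mean and 2.41 times the KO CD62Lhi mean.

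Prpf40b (chr15:99295409-99317007, plus strand) encodes a homologue of a yeast protein of the U1 small nuclear ribonucleoprotein, which recognises the start of introns. It had 6.19, 6.12 and 5.64 FPKM in KO CD62Llo libraries, 4.98, 4.63 and 4.67 FPKM in KO CD62Lhi libraries, 4.86, 4.48 and 4.08 FPKM in HET CD62Llo libraries and 4.62 and 4.54 FPKM in HET CD62Lhi libraries. The KO CD62Llo libraries stood apart from the others, and the lowest KO CD62Lhi library lay just above the higher HET CD62Lhi library. The ratio to the nearer HET mean was 1.31.

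Baz2b (chr2:59899363-60125740, minus strand) encodes a bromodomain protein that binds acetylated histones. It had 7.95, 8.61 and 8.48 FPKM in KO CD62Llo libraries, 7.13, 7.88 and 8.20 FPKM in KO CD62Lhi libraries, 5.86, 6.85 and 6.56 FPKM in HET CD62Llo libraries and 6.52 and 6.64 FPKM in HET CD62Lhi libraries. The genotypes did not overlap in either fraction, while within each genotype the fractions did. An antisense transcript, Gm13620, overlaps 238 of its exon bases.

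Cep97 (chr16:55899888-55934848, minus strand) encodes a centriole protein that, with its partner CCP110, is known in human cells to block the outgrowth of cilia. It had 16.6, 15.7 and 15.5 FPKM in KO CD62Llo libraries, 12.6, 13.2 and 14.5 FPKM in KO CD62Lhi libraries, 13.5, 12.1 and 12.5 FPKM in HET CD62Llo libraries and 12.0 and 13.8 FPKM in HET CD62Lhi libraries. The KO CD62Llo libraries were above all others and the remaining 3 groups overlapped one another. Cep97 had the highest level of the 9 genes and the smallest ratio to the nearer HET mean among the 8 that were higher, 1.23.

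Tnfaip1 (chr11:78522850-78536260, minus strand) encodes a substrate adaptor of the CUL3 ubiquitin ligase, known in human cells to direct the breakdown of the small GTPase RhoA. It had 5.47, 5.88 and 5.71 FPKM in KO CD62Llo libraries, 5.98, 6.38 and 5.59 FPKM in KO CD62Lhi libraries, 6.61, 7.14 and 6.97 FPKM in HET CD62Llo libraries and 7.01 and 7.09 FPKM in HET CD62Lhi libraries. All 6 KO libraries lay below all 5 HET libraries, and the fractions overlapped within each genotype. The KO CD62Llo mean was 0.824 times the HET CD62Llo mean.

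In order of mean level, KO CD62Llo came before KO CD62Lhi, HET CD62Lhi and HET CD62Llo in 6 genes, Pde3b, Pik3cb, Gng12, Prpf40b, Baz2b and Cep97. In Pik3r3 the HET fractions changed places, in Slc22a17 HET CD62Llo came second, and in Tnfaip1 the order of the 6 was turned round except that HET CD62Lhi was above HET CD62Llo. KO CD62Llo and KO CD62Lhi, neighbours in that order in all members but Slc22a17, overlapped in Pde3b, Pik3cb, Baz2b and Tnfaip1. KO CD62Lhi and HET CD62Lhi, neighbours in the 6 genes, overlapped in Pde3b, Pik3cb, Gng12 and Cep97. The shares of all tested genes whose HET fractions, or whose KO and HET libraries as a whole, did not overlap were not counted. Such separations are therefore given for the members as a description only.

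**Figure D1:**
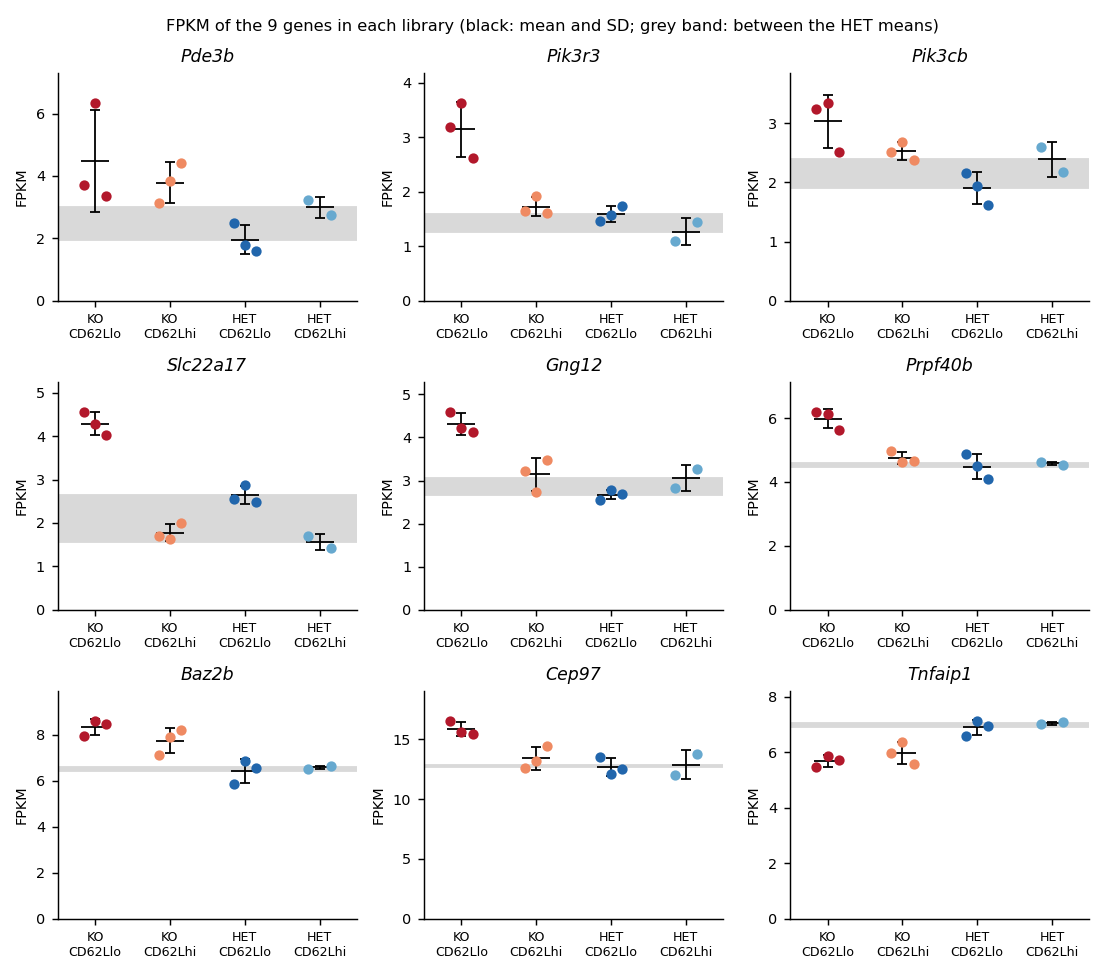
FPKM of each of the 9 genes (vertical axes, from 0) in KO CD62Llo, KO CD62Lhi, HET CD62Llo and HET CD62Lhi libraries, 1 point per library in replicate order, with black marks for the mean and SD of 3 libraries (2 in HET CD62Lhi) and a grey band between the HET means. The KO CD62Llo points lie above the band in 8 panels and below it in the panel of Tnfaip1, and in the panel of Slc22a17 KO CD62Lhi falls inside the band.

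Lying outside both HET means was common among all genes. Of the 11431 tested genes 21.2% had a KO CD62Llo mean above both HET means and 20.3% below both, beside 8 and 1 of the 9 members. Every KO CD62Llo library was above every HET library in 7 members and 1.19% of tested genes, and below every HET library in 1 member and 1.38% of tested genes. These counts rest on the values that chose the members and nothing is read from them. Of 9761 tested genes that reached 3 FPKM in some group mean, 148 lay above both HET means by at least the ratio of Cep97 and 69 below both by at least that of Tnfaip1. Of these, 9 and 3 were also called in KO CD62Llo against HET CD62Llo: 8 members and Mir1905 above, and Tnfaip1, Aldoc and Mgat4b below. Both cutoffs are ratios of members, so all 9 members pass them by construction. The calls rest on libraries that chose the members, so they are no test of them. Nothing is read from the share of members among the genes left. Just inside the ratio of Cep97 were Hist1h2bc (1.235) and Tmem198b (1.238), and just outside it Prickle1 (1.231) and Fgf13 (1.23). On the lower side Fry (0.8226) and Zfp658 (0.8223) were just inside the ratio of Tnfaip1, and Trp53i11 (0.8244) and Endog (0.8261) just outside.

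In the comparison of KO CD62Llo with HET CD62Llo the log2 changes, taken on log2(FPKM + 1) and so too small for genes of low level, were 0.86 (SE 0.20) for Pde3b, 0.67 (SE 0.11) for Pik3r3, 0.54 (SE 0.08) for Slc22a17 and 0.53 (SE 0.08) for Gng12. They were 0.47 (SE 0.11) for Pik3cb, 0.35 (SE 0.07) for Prpf40b, 0.33 (SE 0.07) for Baz2b, 0.30 (SE 0.07) for Cep97 and -0.24 (SE 0.06) for Tnfaip1. The fit called 1.36% of all tested genes higher and 3.25% lower, beside 8 members higher and 1 lower. The contrast is made of values that chose the members, so nothing is read from the count. The members' median was 0.47, beside -0.03 over all tested genes.

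KO CD62Lhi libraries were not used by the rule, and most members lay on the same side of HET there, at smaller distances. The KO CD62Lhi mean was above both HET means in 7 members (18% of tested genes) and below both in 1, Tnfaip1 (40% of tested genes). Slc22a17 was the member with a KO CD62Lhi mean between the HET means. The ratio of the KO CD62Lhi mean to the nearer HET mean was 1.27 for Pde3b and 1.18 for Baz2b and from 1.03 to 1.09 for the 5 other genes above both, while that of Tnfaip1 was 0.866. These ratios use the same HET libraries as the rule did.

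By limma with Benjamini-Hochberg adjustment over all tested genes, 0 members were called higher (0% of tested genes) and 0 lower (0%) in KO CD62Lhi against HET CD62Lhi, where all 9 had an adjusted p = 1. The HET CD62Lhi libraries helped choose the members, so these p-values are not independent of the choice. At an unadjusted p under 0.05 (limma) there were 328 of 11431 tested genes, of which 2 were members, Baz2b and Tnfaip1. Nothing is read from this count. Baz2b had a log2 change of 0.20 (SE 0.08) and Tnfaip1 one of -0.21 (SE 0.06). Pik3r3 had a log2 change of 0.27 (SE 0.12), Pde3b 0.26 (SE 0.22) and Slc22a17 0.11 (SE 0.09). The 4 other members, Pik3cb, Cep97, Prpf40b and Gng12, had log2 changes of 0.06 (SE 0.12), 0.05 (SE 0.08), 0.05 (SE 0.07) and 0.03 (SE 0.09). Every KO CD62Lhi library was above both HET CD62Lhi libraries in 3 members, Pik3r3, Prpf40b and Baz2b (7.83% of tested genes), and below both in Tnfaip1 (14.4% of tested genes). The groups are of 3 and 2 libraries, and a p that misses the threshold does not show that the levels were alike. The third HET CD62Lhi library could not add to this comparison.

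Within KO, every CD62Llo library was above every CD62Lhi library in 5 members, Pik3r3, Slc22a17, Gng12, Prpf40b and Cep97 (24.3% of tested genes), and below every one in 0 members (10.5% of tested genes). The log2 changes, which rest on the libraries that chose the members and carry no test, were largest for Slc22a17 at 0.93 (SE 0.08) and Pik3r3 at 0.60 (SE 0.11). Gng12 followed at 0.36 (SE 0.08), Prpf40b at 0.28 (SE 0.07) and Cep97 at 0.23 (SE 0.07). Pik3cb at 0.19 (SE 0.11), Pde3b at 0.16 (SE 0.20), Baz2b at 0.10 (SE 0.07) and Tnfaip1 at -0.06 (SE 0.06) differed between the KO fractions by less than 2 standard errors.

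Between the HET fractions 1 member, Slc22a17, was called higher in CD62Llo (18.8% of tested genes were) and 0 were called lower (8.88% of tested genes were). Slc22a17 had a log2 change of 0.50 (SE 0.09, adjusted p = 0.00305 by limma, Benjamini-Hochberg), with 3 of 3 CD62Llo libraries above both CD62Lhi libraries. The call was kept under all 17 alternatives that gave it a value, with adjusted p from 0.00252 to 0.0395. Both HET groups stand in the rule that chose the 9 genes, though their difference does not, so the members' p-values here are not independent of the choice either. Pde3b had a log2 change of -0.44 (SE 0.22, adjusted p = 0.169), Pik3cb -0.23 (SE 0.12, adjusted p = 0.188), Gng12 -0.14 (SE 0.09, adjusted p = 0.29) and Pik3r3 0.20 (SE 0.12, adjusted p = 0.257). The log2 changes of Prpf40b, Baz2b, Cep97 and Tnfaip1 lay between -0.03 and -0.02. The median over all genes was 0.07 and it moved by -0.10 under quantile normalization and under median centring. After quantile normalization Pde3b (-0.62, adjusted p = 0.0487), Pik3cb (-0.41, adjusted p = 0.0154) and Gng12 (-0.33, adjusted p = 0.0367) passed as lower in HET CD62Llo and Pik3r3 was at -0.0011. After median centring Pik3cb passed as well (-0.33, adjusted p = 0.0474). Over their alternatives the adjusted p ran from 0.0487 to 0.463 for Pde3b, 0.0154 to 0.598 for Pik3cb, 0.0367 to 0.761 for Gng12 and 0.162 to 0.996 for Pik3r3.

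**Figure D2:**
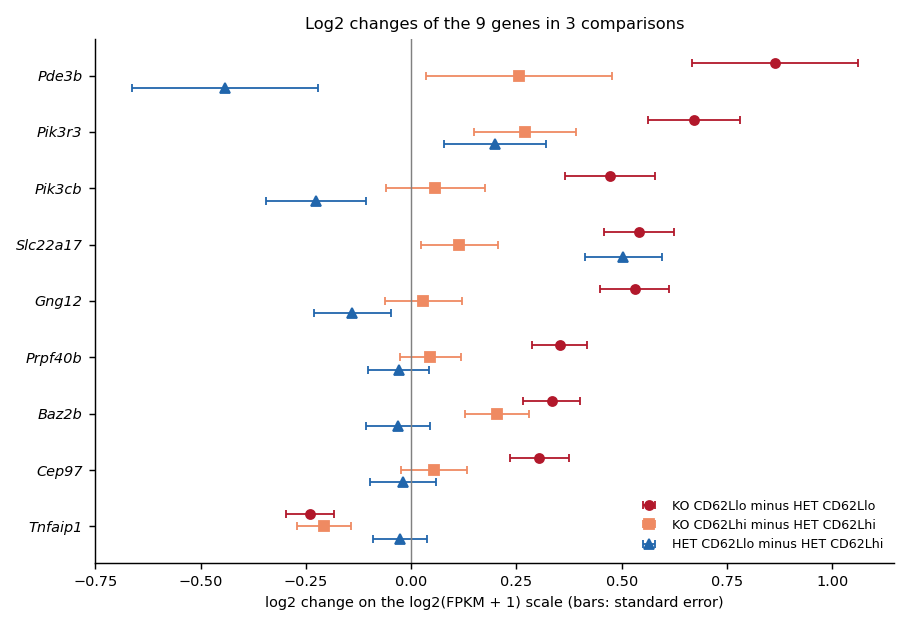
Log2 change of each gene on the log2(FPKM + 1) scale (horizontal axis) with its standard error for KO CD62Llo minus HET CD62Llo (circles), KO CD62Lhi minus HET CD62Lhi (squares) and HET CD62Llo minus HET CD62Lhi (triangles). The circles run from 0.86 for Pde3b to -0.24 for Tnfaip1, most squares lie nearer 0, and the triangle of Slc22a17 at 0.50 is the only tested change past the threshold.

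Of 6 other class I PI3-kinase subunit genes tested, taken from a list, 0 were called higher and 0 lower in KO CD62Llo against HET CD62Llo (1.36% and 3.25% of all tested genes), a number of genes too small to set against those shares. Their median log2 change was -0.02. Pik3cd had a log2 change of 0.32 (SE 0.08, adjusted p = 0.059) and Pik3r5 one of 0.36 (SE 0.11, adjusted p = 0.109), not past the threshold (limma, Benjamini-Hochberg). Their direction was that of Pik3cb and Pik3r3, as was that of Pik3r1 at 0.14 (SE 0.11). Pik3ca at -0.24, Pik3r2 at -0.22 and Pik3cg at -0.18 (SE 0.09 each) went the other way. Unlike the members, Pik3cd and Pik3r5 had KO CD62Llo means between the HET means. For Pik3r5 this was 24.98 FPKM, beside 19.19 in HET CD62Llo and 34.58 in HET CD62Lhi. Pik3cd, the delta catalytic subunit that dominates in lymphocytes, averaged 135 ± 4.02 FPKM in KO CD62Llo, 154 ± 10.9 in KO CD62Lhi, 108 ± 10.3 in HET CD62Llo and 148 ± 11.2 in HET CD62Lhi (SD, n = 3, 3, 3 and 2). Per length this level is far above those of Pik3cb and Pik3r3, which lay below 4 FPKM in each of the 11 libraries. Between the HET fractions 1 of the 6 was called higher in CD62Llo and 3 lower (18.8% and 8.88% of all tested genes). Pik3r5, a regulatory subunit of the gamma enzyme, fell in CD62Llo (log2 change -0.82, SE 0.12, adjusted p = 0.00106, limma with Benjamini-Hochberg), and Pik3cd fell by 0.45 on the log2 scale (adjusted p = 0.00483). Pik3r1, a regulatory subunit, had a log2 change of -0.38 (adjusted p = 0.042), and Pik3ca, the alpha catalytic subunit, was higher by 0.33 (adjusted p = 0.03). The Pik3cd call was lost without HET CD62Lhi replicate 1 (adjusted p = 0.0558). The Pik3r1 and Pik3ca calls were lost under 9 and 6 of 18 alternatives, with adjusted p of up to 0.289 without HET CD62Lhi replicate 2 for Pik3r1 and 0.14 without HET CD62Lhi replicate 1 for Pik3ca. With the replicate number as a block, Pik3cd was called higher and Pik3ca lower in KO CD62Llo against HET CD62Llo, so 1 higher and 1 lower in place of 0 and 0.

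Of 16 antagonists and effectors of the pathway, 1 was called higher and 0 lower in KO CD62Llo against HET CD62Llo. This was Pik3ip1, which encodes a membrane inhibitor of PI3-kinase, with 51.3 ± 2.00 FPKM in KO CD62Llo and 38.9 ± 1.85 FPKM in HET CD62Llo (SD, n = 3 each). In HET CD62Lhi it averaged 55.3 ± 6.16 FPKM (SD, n = 2), so its KO CD62Llo mean lay between the HET means. Its log2 change in KO CD62Llo against HET CD62Llo was 0.39 (SE 0.08, adjusted p = 0.0325, limma with Benjamini-Hochberg). The adjusted p under the alternatives ran from 0.0122 to 0.111. The call was lost on leaving out any of 6 libraries, with adjusted p of 0.111, 0.0686 and 0.0608 without KO CD62Llo replicates 1, 2 and 3, 0.0559 without KO CD62Lhi replicate 1, and 0.0956 and 0.0976 without HET CD62Llo replicates 2 and 3. With the replicate block Foxo1, a transcription factor that Akt keeps out of the nucleus, was called higher as well. Its KO CD62Llo mean of 47.9 FPKM also lay between those of HET CD62Llo (41.0) and HET CD62Lhi (51.2).

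Of 8 other phosphodiesterase genes tested, 0 were called in KO CD62Llo against HET CD62Llo, and of 13 genes of cAMP synthesis and response 0 were called. Pde4b, which breaks down cAMP, averaged 22.8 ± 2.66 FPKM in KO CD62Llo, 22.3 ± 1.33 in KO CD62Lhi, 22.6 ± 1.63 in HET CD62Llo and 22.1 ± 0.336 in HET CD62Lhi (SD, n = 3, 3, 3 and 2). Between the HET fractions 1 of the 8 was called higher and 1 lower (18.8% and 8.88% of all tested genes). Pde7a, another cAMP phosphodiesterase, rose in CD62Llo (log2 change 0.84, adjusted p = 8.34e-05, limma with Benjamini-Hochberg), and Pde4d fell (log2 change -0.40, adjusted p = 0.0147), a call that was lost without HET CD62Lhi replicate 2 (0.116) and with only the 2 groups in the fit (0.0623). Of 8 other G protein beta and gamma genes, 0 were called higher and 1 lower in KO CD62Llo against HET CD62Llo, Gnb5, a beta subunit (log2 change -0.44, adjusted p = 0.0325). The Gnb5 call was lost under 12 of 17 alternatives, where adjusted p reached 0.122 without HET CD62Llo replicate 2. Gng2, another gamma subunit, rose in CD62Llo between the HET fractions (log2 change 1.09, adjusted p = 5e-05).

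**Figure D3:**
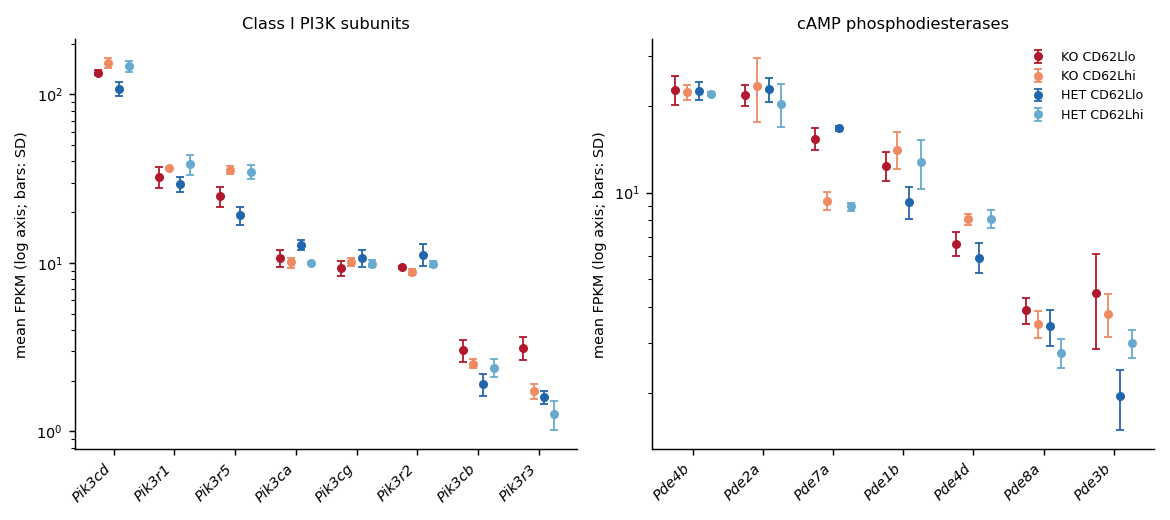
Mean FPKM with SD (log axes) of class I PI3-kinase subunit genes (left) and cAMP phosphodiesterase genes (right) in KO CD62Llo, KO CD62Lhi, HET CD62Llo and HET CD62Lhi, showing up to 6 listed genes of the highest level and then the members. Pik3cb and Pik3r3 stand at the low end of the left panel, and Pde3b at the right end of the other with its lowest mean in HET CD62Llo.

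The relatives of the other members are given beside the shares of all tested genes called in KO CD62Llo against HET CD62Llo, 1.36% higher and 3.25% lower, and no list is read as standing apart from these. Of 4 other SLC22 genes tested 1 fell, Slc22a15, an organic ion transporter (log2 change -0.70, SE 0.11, adjusted p = 0.00922). Of 13 U1 and splice site genes 0 passed (with the replicate block 1 was higher, Snrnp70, and 1 lower, Tial1), and of 6 genes of the BAZ and ISWI chromatin remodellers 1 fell, Baz1a (log2 change -0.36, SE 0.07, adjusted p = 0.0266). Of 13 centriole and ciliogenesis genes, the partner Ccp110 included, 0 passed. Of 12 CUL3 and RhoA genes 1 fell, Kctd17, in human cells an adaptor of CUL3 (log2 change -0.65, SE 0.11, adjusted p = 0.0108), and of 11 PRC2 genes 1 fell, Aebp2, a cofactor (log2 change -0.43, SE 0.06, adjusted p = 0.00811). All p-values are from limma with Benjamini-Hochberg adjustment over all tested genes. The Slc22a15, Kctd17 and Aebp2 calls were kept on leaving out each library in turn. The Slc22a15 call was lost at a minimum of 5 FPKM (adjusted p = 0.0695) and with only the 2 groups in the fit (0.056), and the Kctd17 call with only the 2 groups (0.0734). That of Baz1a was lost with only the 2 groups (0.109) and without KO CD62Llo replicate 1 (adjusted p = 0.0912), HET CD62Llo replicate 2 (0.0756) or replicate 3 (0.0811). These 4 genes were all called higher in HET CD62Llo than in HET CD62Lhi, with log2 changes of 1.57 for Slc22a15, 1.73 for Kctd17, 0.78 for Aebp2 and 0.56 for Baz1a, so their KO CD62Llo levels lay between those of the HET fractions. In KO CD62Lhi against HET CD62Lhi 0 genes of these lists passed.

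The 8 genes that were higher in KO CD62Llo did not share 1 profile over the 11 libraries. Pearson correlations between them on the log2 scale ran from 0.25 for Pde3b with Slc22a17 to 0.89 for Gng12 with Cep97, and those with Tnfaip1 from -0.79 to -0.52. The choice of members sets much of this likeness, and the libraries share groups, so the values are a description with no p. Outside the set, the genes with the most similar profile (mean of at least 5 FPKM, Pearson r over the same 11 libraries) were Pip4k2a (0.945) and Ptpra (0.937) for Pik3cb, Cyth3 (0.931) and Ttc3 (0.919) for Pik3r3, and Ctnna1 (0.929) and Plekha1 (0.929) for Slc22a17. They were Wdr1 (0.916) and Kbtbd2 (0.897) for Tnfaip1, Commd8 (0.913) and Ptpra (0.913) for Pde3b, and Whrn (0.912) and Snrk (0.895) for Prpf40b. Baz2b was closest to Tcf12 (0.91) and Fnip1 (0.865), Cep97 to Snrk (0.806), and Gng12 to Kif1b (0.77) and Uri1 (0.761), so Gng12 had the least similar neighbours.

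The members are lowly to moderately expressed, and this bounds how finely they can be read. Mean levels over the 11 libraries ran from 1.99 FPKM for Pik3r3 to 13.8 FPKM for Cep97, at the 12.3rd and 53.9th percentile of tested genes. Fragment numbers were inferred from the interval deposited beside each FPKM. They assume that it spans 2 standard deviations of a Poisson count to either side, which was not checked against read counts. On this assumption the interval corresponded to 128 to 360 fragments per library for Pik3r3, 160 to 427 for Pik3cb, 212 to 660 for Pde3b and 201 to 574 for Gng12. It corresponded to 245 to 835 for Cep97, 215 to 808 for Tnfaip1 and 609 to 1734 for Baz2b. For Slc22a17 it gave 56 to 89 fragments in the 4 libraries, and for Prpf40b 166 to 184 in the 2, where the interval was symmetric enough to use. The distance from the FPKM to its upper bound was 8.44% to 26.6% of the FPKM for Slc22a17. It was 10.5% to 17.7% for Pik3r3, against 4.8% to 8.11% for Baz2b. For Slc22a17 in KO CD62Llo replicate 3, which gave the 8.44%, the lower bound lay further off (4.034 FPKM, bounds 3.362 and 4.375).

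Markers of other cells also differed between the groups. Summed B cell markers (5 genes) were 23.9 to 58.2 FPKM in KO CD62Llo, 71.5 to 122 in KO CD62Lhi, 17.8 to 29.6 in HET CD62Llo and 73.7 to 89.4 in HET CD62Lhi. Summed CD8 T and NK cell markers (5 genes) were 13.2 to 19.7, 30.0 to 37.1, 15.3 to 17.7 and 39.3 to 44.6 FPKM in the same order of groups, and summed myeloid markers were 28.8 to 241, 10.9 to 16.3, 44.0 to 92.2 and 11.2 to 21.6 FPKM. Of these lists 5 of 5, 4 of 5 and 3 of 5 genes reached 1 FPKM in at least 2 libraries. Cd8b1 made up most of the CD8 T and NK sum (means of 11.44, 26.02, 10.72 and 31.41 FPKM in the same order). Klrb1c went the other way (1.331, 0.2857, 2.953 and 0.355 FPKM). Summed conventional CD4 T cell markers (4 genes, Cd40lg, Il2, Themis and Satb1) were 75.7 to 86.0 FPKM in KO CD62Llo and 96.0 to 113 in KO CD62Lhi. They were 56.2 to 67.6 in HET CD62Llo and 94.4 to 98.7 in HET CD62Lhi. Satb1 set this order, with means of 43.66, 73.42, 23.95 and 69.03 FPKM in KO CD62Llo, KO CD62Lhi, HET CD62Llo and HET CD62Lhi. Cd40lg went the other way (24.31, 16.31, 27.18 and 15.02 FPKM), as did Il2 (0.8529, 0.03484, 0.5962 and 0.08915 FPKM). The sums are therefore no measure of the number of such cells. Hba-a1, a haemoglobin gene that made up nearly all of the red cell and platelet list, set that list at 3.14 to 110 FPKM in KO CD62Llo, 6.66 to 225 in KO CD62Lhi, 16.8 to 145 in HET CD62Llo and 96.5 to 108 in HET CD62Lhi. Replicate 3 of KO CD62Llo had the most B cell marker RNA of its group, and correlated at up to 0.963 with KO CD62Lhi libraries, against 0.949 and 0.95 with its own group. That library also had the lowest KO CD62Llo value of Pde3b, Pik3r3, Pik3cb, Slc22a17, Gng12, Prpf40b and Cep97. The part of these cells in the members' values was not tested. On leaving out any 1 of the 11 libraries, all 9 KO CD62Llo means stayed outside both HET means. The libraries left in are among those that chose the members, so nothing is read from this.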

How the data were processed

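Poly(A) RNA of sorted Tregs was sequenced from TruSeq libraries, per the labels' protocols. The FPKM values and their interval bounds were deposited by the authors, made with TopHat, Cufflinks 2.1.1, CASAVA 1.8.2 and FastQC and the mm10 build, per the submitters' processing notes. The sources used here do not give the settings or the use of strand. These FPKM were not rescaled, entries of 1 symbol were summed, and read counts were not used here, so depth was judged from the interval bounds. In 12.1% to 30.8% of entries above 1 FPKM the value exceeded its own upper bound, but in no member.

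The 11 libraries were fitted together with limma 3.58.1 in R 4.3.3 on log2(FPKM + 1), as 4 group means with an empirical Bayes trend. Genes reached 1 FPKM in 2 or more libraries, and p-values were adjusted by Benjamini-Hochberg over all 11431 at 0.05. The fit was tested on simulated data. Other values were computed in Python 3.11.15 with pandas 2.3.3. Nothing in the sources says that libraries came from separate mice, so p-values measure the spread between libraries, which may be technical.

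The members and the lists of related genes and markers were chosen with earlier results of these data known. All 9 members are named. Of related genes at most 6 per list by mean FPKM were to be named, plus Ezh2 and Foxp3, and the 2 closest profiles of each member. Some genes that this rule names are not reported here. Called genes outside that rule (Gnb5, Kctd17, Mir1905, Aldoc, Mgat4b) were named after their values were seen.

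Deviations of same-numbered KO CD62Llo and HET CD62Llo libraries from their group means correlated at 0.165, 0.153 and 0.148. Differently numbered libraries of these groups ran from -0.237 to 0.0844, some of them above 0. In CD62Lhi the KO and HET libraries numbered 1 were at 0.0749 and those numbered 2 at -0.0325, with differently numbered ones from -0.0875 to 0.0875. Between the CD62Llo and CD62Lhi fractions, same-numbered libraries were at 0.131, 0.0684 and 0.178 in KO and at 0.135 and 0.0732 in HET. Differently numbered ones ran from -0.178 to 0.0858 in KO and from -0.135 to 0.0603 in HET. These correlations are weak and do not settle whether the replicate numbers pair libraries, and the main fit does not use the numbers. A fit with the replicate number as a block, other scalings, filters and pseudocounts, and fits without each library were run as alternatives.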

Additional observations from a re-analysis of the deposited data

Results flagged for a closer look

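The Gng12 libraries of the CD62Llo and CD62Lhi fractions lay in opposite order in the 2 genotypes. All 3 KO CD62Llo libraries (4.59, 4.22 and 4.12 FPKM) lay above all 3 KO CD62Lhi libraries (3.22, 2.73 and 3.47 FPKM), while all 3 HET CD62Llo libraries (2.56, 2.78 and 2.69 FPKM) lay below both HET CD62Lhi libraries (2.84 and 3.27 FPKM). The CD62Llo minus CD62Lhi change in KO minus that in HET was 0.50 on the log2(FPKM + 1) scale. The HET change alone was -0.14 (SE 0.09) and did not pass (adjusted p = 0.29, limma with Benjamini-Hochberg). The difference was not tested, because the KO CD62Llo and HET levels chose the gene. The share of all tested genes with such an opposite order was not counted, so how common it is stays unknown.

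In the HET CD62Lhi library that was left out for its low read count, Pik3r3 was listed at 155.2 FPKM with a deposited interval of 0 to 446.7, and the other 8 members were listed at 0. In the other 11 libraries Pik3r3 did not pass 3.63 FPKM. An FPKM in a library with 589 of 23846 entries above 0 can rest on very few reads, and no comparison uses it.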

How the results depend on the processing

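The alternatives reuse the libraries that chose the 9 genes, so nothing is read from the members' position or sign under them. All 9 KO CD62Llo means stayed outside both HET means under each alternative run. This held also with group medians, scaled values and, chosen after seeing the data, the authors' pooled FPKM. In KO CD62Llo against HET CD62Llo the log2 changes of the 9 genes kept their sign under every alternative. Genes called there numbered 526 (155 higher, 371 lower), 109 with only these groups in the fit, and 177 to 613 on leaving out 1 library, where the count moved most without KO CD62Llo replicate 1 (189) or 3 (285) and HET CD62Llo replicate 2 (177) or 3 (301). The split was 237 higher and 310 lower after quantile normalization, 226 and 281 after median centring, and the replicate block gave 755 calls. Between the HET fractions 3163 genes were called (2148 higher, 1015 lower), 1431 and 1638 after quantile normalization, 1522 and 1862 after median centring, and 1920 to 3332 on leaving out 1 library (1920 and 2013 without HET CD62Lhi replicates 1 and 2). In KO CD62Lhi against HET CD62Lhi 0 genes were called, 5 with only these groups in the fit, and 0 to 5 on leaving out 1 library, in each case 0 members.

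Some small changes turned sign. Between the HET fractions Pik3r3 was at -0.0011 after quantile normalization, Prpf40b at 0.0033 with the replicate block, and leaving out 1 library gave ranges of -0.0804 to 0.0229 for Prpf40b, -0.0731 to 0.0238 for Baz2b, -0.1099 to 0.0711 for Cep97 and -0.0484 to 0.0004 for Tnfaip1. In KO CD62Lhi against HET CD62Lhi such ranges were -0.0314 to 0.1466 for Pik3cb, -0.048 to 0.106 for Gng12 and -0.0364 to 0.1446 for Cep97. Between the KO fractions Pde3b ran from -0.0672 (without KO CD62Llo replicate 2) to 0.307, and Baz2b was at -0.0013 after quantile normalization. The cause was not tested. The replicate block changed no call of a member. The filter at 5 FPKM left out Pde3b, Pik3r3, Pik3cb, Slc22a17 and Gng12, which have no value under it. HET CD62Lhi has 2 libraries, which limits every comparison with it.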
